A study of Mus musculus with 6 samples.

Results

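The expression of 10 macrophage and monocyte marker genes was followed across the lobes of the mouse prostate, with and without the MYC transgene. The genes, Csf1r, Cd68, Lyz2, Cd14, Fcgr1, Mrc1, Cd163, Itgam, Marco and Mertk, were taken by symbol as markers of these cells, by a rule that names symbols and no measured value. All 10 were found among the 24908 genes of the table, which gives them in capitals as CSF1R, CD68, LYZ2, CD14, FCGR1, MRC1, CD163, ITGAM, MARCO and MERTK. The libraries came from 2 FVB males of 12 weeks, a Hi-MYC mouse (MYC), heterozygous for a human c-MYC transgene that the ARR2Pb promoter drives in prostate epithelium, and a wild-type littermate (WT) without it. Both had been fed the same purified diet since weaning. From each mouse the anterior (AP), dorsolateral (DLP) and ventral (VP) prostate were taken, and each lobe gave 1 library of bulk RNA-seq, 6 in all. The lobes had been digested with enzymes and strained to a cell suspension before RNA was extracted, so that the libraries hold the cells that came through this step. The study asked how MYC reshapes transcription in each lobe.

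Macrophages and monocytes are myeloid cells that take up microbes, dying cells and debris. Monocytes arrive from the blood, while tissue macrophages live in the organ, around epithelium, vessels and stroma. Signals through the receptor Csf1r keep macrophages alive, and the transcription factor PU.1, product of Spi1, binds purine-rich sites in the regulatory DNA of many myeloid genes. The genes described here differ in role. Csf1r is the receptor for the growth factors Csf1 and Il34. Cd68 is a glycoprotein of the lysosome membrane, and Lyz2 is the lysozyme of myeloid cells. Cd14 binds bacterial lipopolysaccharide together with Toll-like receptors, and Fcgr1 is the high-affinity receptor for the constant part of IgG. Mrc1 (the mannose receptor), Cd163 (which takes up haemoglobin bound to haptoglobin) and Marco are scavenger receptors of macrophages. Itgam is the integrin chain CD11b of monocytes, macrophages and neutrophils. Mertk is a receptor tyrosine kinase through which macrophages engulf dying cells. Some of these genes are also used by other cells, such as neutrophils for Itgam and Cd14 and endothelium for Mrc1.

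The upstream DNA of 5 of these genes is shown because their values separate in the MYC DLP. Cd68, Fcgr1, Itgam and Lyz2 were higher there than in the WT DLP, whereas Cd163 was not. Lyz2, with the largest difference of the 7 genes tested, does not hold the letters in capitals, and neither does Cd163. Each sequence is the 250 bases before the start used in the promoter table, 5′ to 3′ on the strand of the gene, from RefSeq on GRCm38.p6. Capitals mark GAGGAA or its reverse complement TTCCTC, 1 form of the purine-rich letters of PU.1 sites. Other forms were not searched, so that a window without capitals may still hold such a site. The region is chr11:69666171-69666420 (minus strand) for Cd68, chr3:96293970-96294219 (minus strand) for Fcgr1, chr7:128062390-128062639 (plus strand) for Itgam and chr6:124304401-124304650 (plus strand) for Cd163.
Cd68: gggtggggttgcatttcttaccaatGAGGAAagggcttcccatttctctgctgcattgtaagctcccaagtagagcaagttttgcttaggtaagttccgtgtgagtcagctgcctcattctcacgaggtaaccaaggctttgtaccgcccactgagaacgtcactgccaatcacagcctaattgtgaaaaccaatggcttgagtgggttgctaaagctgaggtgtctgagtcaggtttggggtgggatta
Fcgr1: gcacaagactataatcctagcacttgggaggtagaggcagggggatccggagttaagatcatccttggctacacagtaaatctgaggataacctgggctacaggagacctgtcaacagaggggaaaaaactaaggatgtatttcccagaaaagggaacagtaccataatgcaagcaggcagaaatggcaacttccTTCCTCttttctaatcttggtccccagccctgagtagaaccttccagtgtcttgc
Itgam: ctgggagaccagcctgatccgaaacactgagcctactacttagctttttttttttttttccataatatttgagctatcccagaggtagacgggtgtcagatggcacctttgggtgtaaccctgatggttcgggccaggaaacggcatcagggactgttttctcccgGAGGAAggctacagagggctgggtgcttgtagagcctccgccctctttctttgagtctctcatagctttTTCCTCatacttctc
Lyz2: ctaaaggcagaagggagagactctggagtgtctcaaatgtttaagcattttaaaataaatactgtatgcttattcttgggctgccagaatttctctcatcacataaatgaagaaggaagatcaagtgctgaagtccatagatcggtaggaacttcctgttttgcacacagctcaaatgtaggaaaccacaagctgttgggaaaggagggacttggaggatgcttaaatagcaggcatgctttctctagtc
Cd163: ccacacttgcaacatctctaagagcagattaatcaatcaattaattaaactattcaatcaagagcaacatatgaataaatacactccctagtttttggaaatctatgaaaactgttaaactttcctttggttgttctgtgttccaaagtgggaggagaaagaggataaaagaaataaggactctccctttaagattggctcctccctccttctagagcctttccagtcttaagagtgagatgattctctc
The 6 letters were searched on both strands, where GAGGAA on one strand is TTCCTC on the other. Promoters of 8 members were searched and 5 of them held the letters, compared with 23.4% of all 32536 distinct promoters of the same length. Those of Csf1r and Cd14 were not searched. In Cd68 they lay 225 bases before the start on the strand of the gene, and in Fcgr1 55 bases before it on the other strand. Itgam held them 84 bases before the start on its own strand and 15 bases before it on the other. Mrc1 had 3 matches on the other strand, at 180, 167 and 35 bases, and Marco 1 on its own strand at 146 bases. The windows of Lyz2, Cd163 and Mertk did not contain these letters. The Cd163 window reaches into the interval annotated for its gene. A match is only a description of the sequence.

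Each gene is named with its place in GRCm38.p6 as RefSeq gives it. Csf1r is at chr18:61105572-61131139 and Cd14 at chr18:36725064-36726815. Cd68 is at chr11:69664213-69666170 and Fcgr1 at chr3:96282909-96293969. Lyz2 is at chr10:117277541-117282272, beside its paralog Lyz1 at chr10:117287795-117292868. Mrc1 is at chr2:14229414-14332023 and Mertk at chr2:128698915-128803162. Cd163 is at chr6:124304636-124330529, Itgam at chr7:128062640-128118491 and Marco at chr1:120474538-120505024. Genes annotated within or across these intervals are Mir6983 and Gm52352 at Csf1r, Mir511 at Mrc1 and Gm52877 at Cd163, and how reads were divided between such genes is not given in the sources used here.

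Levels are FPKM, which divide the fragments of a gene by its transcript length and by the depth of the library, so that they can be compared between genes per length. Depth was estimated from the values as 25.5 M mapped reads for the AP, 47.2 M for the DLP and 49.7 M for the VP of the WT mouse. For the MYC mouse it was 50.2 M for the AP, 34.8 M for the DLP and 41.1 M for the VP. WT AP, with the fewest reads, gave the least precise low values. With 1 library per lobe and genotype there was no replicate check and no test of a difference, and genotype cannot be told apart from the individual mouse. Intervals are exact 95% intervals from the estimated reads and cover counting error only. The transgene was checked through Myc, which had 230.0 FPKM in WT AP, 201 in WT DLP and 226 in WT VP. It had 586 FPKM in MYC DLP and 1696 in MYC VP, but 231 in the AP library labelled MYC, so that Myc does not check the label of that library. The transgene is human, and how its reads were counted under the mouse gene is not given in the sources used here. The same AP library stood apart in Svs4 and Svs5, which encode proteins that the seminal vesicle secretes. They had 293 and 212 FPKM there and were listed at 0 in WT AP, and Pate4 of the same list had 8.55 FPKM there and 0.0966 in WT AP. Svs4 and Svs5 were also found in MYC DLP, with 4.68 and 2.62 FPKM, and were listed at 0 in WT DLP and in both VP libraries. Their part in the AP and DLP values below was not tested.

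RNA of most of the marker genes was found in all 6 libraries. Apart from Marco, each of the 10 genes had at least 6 estimated reads in every library. Summed over the 10 genes, the level was 135 FPKM in WT AP and 126 FPKM in the AP library labelled MYC. The sum was 67.9 FPKM in the WT DLP against 286 FPKM in the MYC DLP, and 49.6 against 189.6 FPKM in the VP. Single genes spanned a wide range. Lyz2 reached 132 FPKM, whereas Fcgr1 stayed at or below 2.496 FPKM and Cd163 at or below 1.23 FPKM. Marco was listed at 0 in 4 libraries and had an estimated 3 reads in WT DLP and 1 in WT VP. For the 0 reads of Marco in MYC DLP the exact interval reaches up to 0.0594 FPKM, where 3 reads would be 0.0483 FPKM. With at most 3 estimated reads in any library, no fold is given for Marco. With a minimum mean of 1 FPKM over the 6 libraries, 7 of the 10 genes entered the counts of differences, and Fcgr1, Cd163 and Marco did not.

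**Figure D1:**
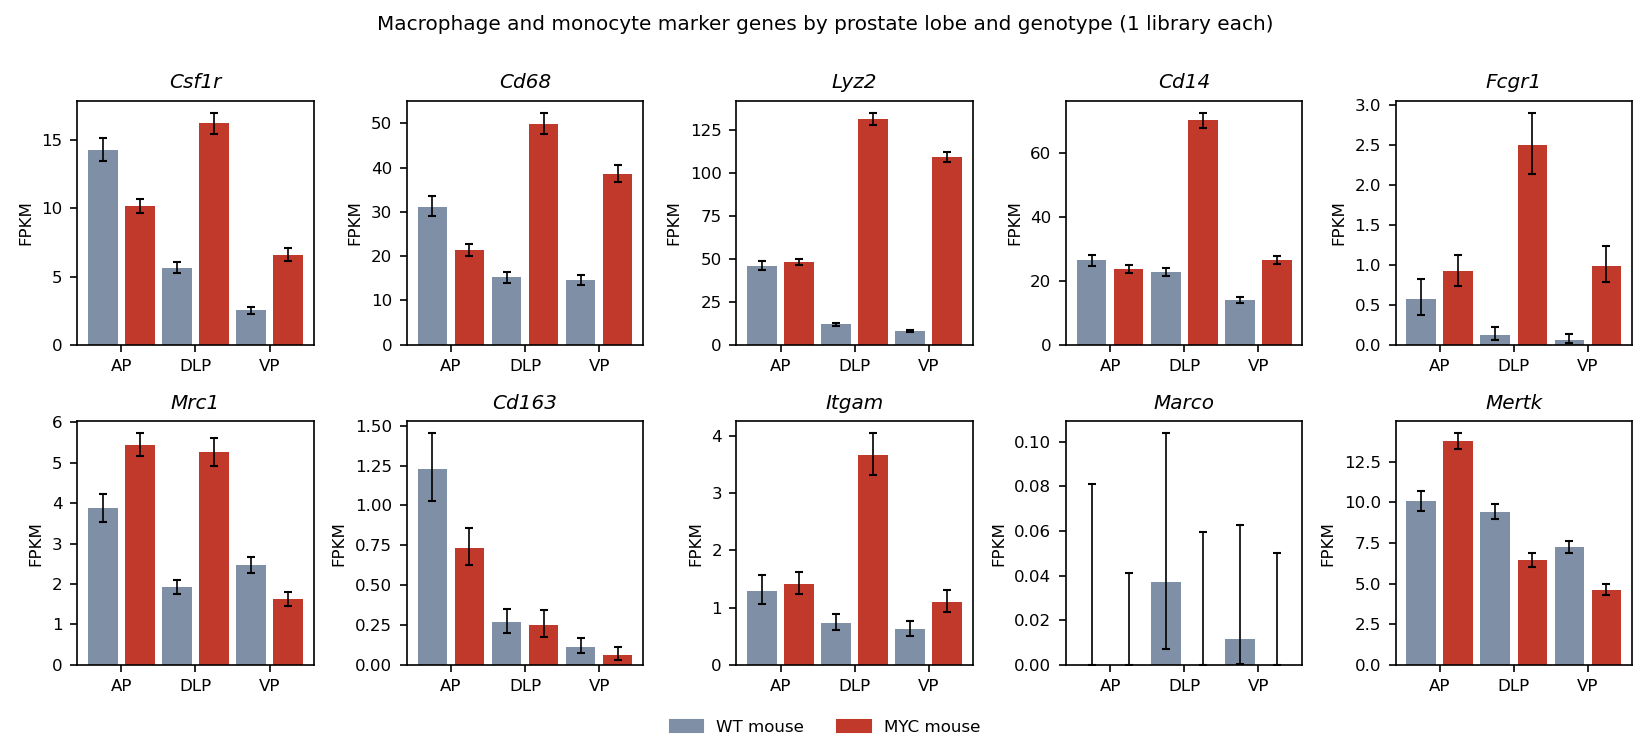
FPKM (vertical axis, a scale of its own for each gene) of the 10 marker genes in AP, DLP and VP of the WT mouse (grey-blue bars) and the MYC mouse (red bars), 1 library per bar, with exact 95% counting intervals as error bars. Csf1r, Cd68, Lyz2, Cd14, Fcgr1 and Itgam are highest in MYC DLP, Mrc1 and Mertk in the AP library labelled MYC, and Cd163 in WT AP.

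Among WT lobes, the marker genes other than Marco were highest in AP. Csf1r had 14.3 FPKM in WT AP, 5.66 in WT DLP and 2.53 in WT VP. The AP level was 5.66 times that of VP, and the counting intervals of the 3 lobes did not overlap. Lyz2 followed the same order with 46.0, 11.8 and 7.82 FPKM, and AP was 5.89 times VP. Cd68 had 31.2 FPKM in WT AP, 15.2 in WT DLP and 14.7 in WT VP. The VP over DLP ratio of Cd68 was 0.966, with an interval of 0.865 to 1.08 that spans equality, and its direction turned under other scalings of the libraries (log2 differences of -0.05 to 0.16). Cd14 varied less, with 26.4, 22.7 and 14.0 FPKM in AP, DLP and VP. Low genes showed a wide spread. Cd163 had 1.23 FPKM in WT AP, 0.267 in WT DLP and 0.115 in WT VP, so that AP was 10.7 times VP. Fcgr1 had 0.574, 0.124 and 0.0591 FPKM, from an estimated 28, 11 and 6 reads.

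Itgam, Mrc1 and Mertk differed by less between WT AP and WT VP, by 2.04, 1.57 and 1.39 times. Itgam had 1.29 FPKM in AP, 0.738 in DLP and 0.634 in VP, and the intervals of DLP and VP overlapped. Mrc1 had 3.87 FPKM in AP, 1.93 in DLP and 2.47 in VP, and was higher in VP than in DLP, with a ratio of 1.28 (1.14 to 1.45). Mertk had 10.1, 9.43 and 7.27 FPKM, and its AP and DLP intervals overlapped.

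On the scale of log2(FPKM + 1), which understates differences of low genes, a gene was counted as different at 2-fold or more. Of the 7 genes, 2 were at least 2-fold lower in WT DLP than in WT AP, Csf1r (-1.20) and Lyz2 (-1.87), where 1.31% of all 12361 genes compared were and 3.85% were higher by that much. In WT VP compared with WT AP, 3 of 7 were at least 2-fold lower, Csf1r (-2.12), Cd68 (-1.04) and Lyz2 (-2.42), where 10.3% of all genes were and 7.89% were higher. Cd68 missed 2-fold there with libraries scaled by size factors (-0.97). The median log2 difference of the 7 genes was -0.74 in DLP and -0.86 in VP, both against the same WT AP library, and that of all genes was 0.10 and -0.01. Between WT VP and WT DLP none of the 7 reached 2-fold, where 2.63% of all genes were higher and 6.29% lower by that much. The median difference was -0.34 for the 7 genes and -0.14 for all 10 markers, against -0.13 for all genes.

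Genes of other cells also separated WT VP from WT AP. All 8 endothelial genes were at least 2-fold lower in WT VP, with a median log2 difference of -2.07, and their summed level was 196 FPKM in AP and 33.2 in VP. Red blood cell genes were lower too, with a sum of 916 FPKM in AP and 148 in VP. Of 10 genes shared by all leukocytes, such as Cd52 and Laptm5, 6 were at least 2-fold lower and 2 were above their AP level, and the sum of the 10 was 127 FPKM in AP and 63.3 in VP. The 2 were Lcp1, with 21.1 FPKM in AP and 32.5 in VP, and Ptpn6, named after its values were seen, with 5.94 and 11.2 FPKM. Whether cells other than leukocytes express these 2 was not tested. Basal epithelial genes and mast cell genes were lower as well, 4 of 5 by 2-fold or more in each list, and 4 of 5 mast cell genes were also 2-fold lower in WT DLP than in WT AP. Other lists did not share this direction. Luminal Krt8 and Krt18 were higher in WT VP than in WT AP, with log2 differences of 1.69 and 1.55. Of the 6 luminal genes, however, 3 were higher and 3 lower, with a median of 0.23. All 6 smooth muscle genes lay above their AP level with a median of 0.65. With the median log2 difference of the leukocyte genes taken off, the median of the 7 markers was 0.24 in WT VP and -0.28 in WT DLP, both against WT AP. The median of all genes was then 1.09 and 0.55. On that scale Csf1r and Lyz2 were still lower in WT VP than in WT AP (-1.01 and -1.31), whereas Cd68, Cd14, Mrc1, Itgam and Mertk turned to between 0.07 and 0.68. Cd14, Itgam and Mertk also turned in WT DLP against WT AP, to 0.24, 0.05 and 0.36. The median of the 7 markers in WT VP against WT DLP turned to 0.25, where that of all genes was 0.46. None of these lists had every gene at 0 in a lobe. In bulk libraries, fewer cells of a type and less RNA per cell cannot be told apart. The part of these other cells in the lobe differences was not tested.

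In the DLP, most marker genes were higher in MYC than in WT. Of the 7 genes, 6 were at least 2-fold higher and none was 2-fold lower, where 6.46% of all genes compared were higher and 3.39% lower by that much. Itgam is 1 of the 6 and passed the minimum through MYC DLP, since its mean was 0.988 FPKM with that library at the WT DLP level. With the minimum applied in this way to all genes, a check chosen after seeing the data, 5 of 6 were at least 2-fold higher, where 5.47% of genes were. Mrc1 missed 2-fold when libraries were scaled to equal sums without the 20 highest genes (0.96). The median log2 difference of the 7 was 1.42, against 0.03 for all genes. Lyz2 had 11.8 FPKM in WT DLP against 132 FPKM in MYC DLP, an 11.1-fold difference (10.2 to 12.1). Its log2 difference of 3.37 exceeded that of 99.6% of all genes compared. Lyz1 had 0.580 and 4.55 FPKM in the same libraries. Lyz1 made up between 2.31% and 7.32% of the sum of both genes in the 6 libraries, and the split of reads between these paralogs is uncertain.

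The growth factor receptor Csf1r, the lysosomal gene Cd68 and the lipopolysaccharide receptor Cd14 were each about 3-fold higher in MYC DLP. Csf1r went from 5.66 to 16.3 FPKM, 2.87-fold (2.64 to 3.12). Cd68 went from 15.2 to 49.9 FPKM, 3.29-fold (3.00 to 3.61), and Cd14 from 22.7 to 70.1 FPKM, 3.09-fold (2.91 to 3.29). These 3 genes differed from one another far less than Lyz2 differed from them. Itgam had 0.738 FPKM in WT DLP and 3.67 in MYC DLP, 4.97-fold (4.02 to 6.25). Fcgr1 had 0.124 and 2.496 FPKM, 20.1-fold with a wide interval of 11.3 to 42.3 that reflects 11 estimated reads in WT. Its log2 difference with 1 FPKM added was only 1.64.

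The scavenger and engulfment receptors did not share a direction in DLP. Mrc1 was 1.93 FPKM in WT and 5.25 in MYC, 2.73-fold higher (2.44 to 3.06). Cd163 was 0.267 FPKM in WT and 0.253 in MYC, a ratio of 0.947 whose interval of 0.595 to 1.44 spans equality. Mertk was lower in MYC, with 9.43 FPKM in WT and 6.44 in MYC, a ratio of 0.683 (0.631 to 0.740). Its log2 difference of -0.49 was short of 2-fold.

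In the VP, Csf1r, Cd68 and Lyz2 were higher in MYC. Of the 7 genes, these 3 were at least 2-fold higher in MYC VP than in WT VP and none was 2-fold lower, where 6.88% of all genes were higher and 5.95% lower by that much. Csf1r missed 2-fold in VP when libraries were scaled to equal sums (0.91) or to equal sums without the 20 highest genes (0.89). Whether the count differs between DLP and VP was not tested. The median log2 difference was 0.87, against 0.04 for all genes. Lyz2 had 7.82 FPKM in WT and 109 in MYC, 14.0-fold (12.7 to 15.5), and a log2 difference of 3.65, above that of 99.8% of all genes. Csf1r went from 2.53 to 6.61 FPKM, 2.61-fold (2.31 to 2.96), and Cd68 from 14.7 to 38.6 FPKM, 2.63-fold (2.40 to 2.89). Cd14 went from 14.0 to 26.5 FPKM, 1.88-fold (1.74 to 2.04). Its intervals did not overlap, yet it stayed below 2-fold.

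Low genes in VP rested on few reads. Fcgr1 had 0.0591 FPKM in WT and 0.990 in MYC, from an estimated 6 and 79 reads, 16.8-fold (6.99 to 44.6). Itgam had 0.634 and 1.10 FPKM, 1.74-fold (1.34 to 2.29), short of 2-fold. Cd163 had 0.115 FPKM in WT and 0.0624 in MYC, a ratio of 0.544 with an interval of 0.245 to 1.17. Mrc1 and Mertk were lower in MYC VP. Mrc1 had 2.47 FPKM in WT and 1.62 in MYC, a ratio of 0.658 (0.575 to 0.752), the reverse of its direction in DLP. Mertk had 7.27 and 4.62 FPKM, a ratio of 0.636 (0.583 to 0.694), close to that in DLP.

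In the AP, none of the 7 genes was 2-fold different between the AP library labelled MYC and WT AP, where 2.05% of all genes were higher and 0.599% lower by that much. Lyz2 had 46.0 FPKM in WT and 48.0 in the library labelled MYC, a ratio of 1.04 (0.976 to 1.12), and its log2 difference of 0.06 turned to -0.09 when libraries were scaled by size factors. Csf1r and Cd68 were lower in the library labelled MYC. Csf1r had 14.3 and 10.2 FPKM, a ratio of 0.712 (0.659 to 0.770), and Cd68 had 31.2 and 21.5 FPKM, a ratio of 0.688 (0.624 to 0.757). Cd14 was 26.4 FPKM in WT and 23.6 in the library labelled MYC. Cd163 was 1.23 and 0.735 FPKM, a ratio of 0.600 (0.472 to 0.760).

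Mrc1 and Mertk were higher in the AP library labelled MYC. Mrc1 had 3.87 FPKM in WT and 5.45 in the library labelled MYC, 1.41-fold (1.27 to 1.56). Mertk had 10.1 and 13.8 FPKM, 1.36-fold (1.27 to 1.47), its highest value of the 6 libraries. Fcgr1 had 0.574 and 0.920 FPKM, 1.60-fold (1.04 to 2.56). Itgam, with 1.29 and 1.42 FPKM, had a ratio of 1.10 (0.861 to 1.40) that spans equality and turned with the same scaling. Fibroblast and smooth muscle genes were higher in the same library by a median log2 difference of 0.73 and 0.76, beside the seminal vesicle genes given above. Their part in the AP values was not tested either.

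**Figure D2:**
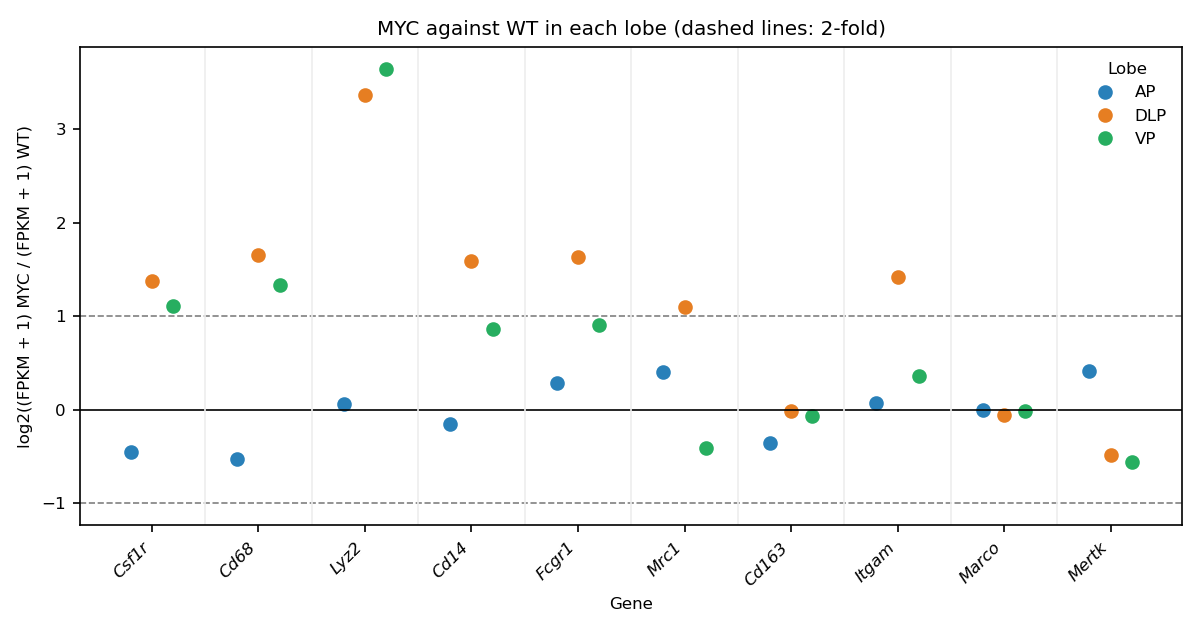
Difference between MYC and WT for each marker gene in AP (blue), DLP (orange) and VP (green), as log2 of (FPKM + 1) in MYC over (FPKM + 1) in WT, with 1 library per genotype and lobe and dashed lines at 2-fold. Lyz2 lies at 3.37 in DLP and 3.65 in VP but at 0.06 in AP, and Mertk is above 0 in AP only.

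The order of the 6 libraries was similar for most genes. MYC DLP was the highest and WT VP the lowest library for Csf1r, Cd68, Lyz2, Cd14, Fcgr1 and Itgam. For Csf1r no neighbours in the order had overlapping intervals, and WT AP was second, followed by the AP library labelled MYC. For Cd68, Lyz2, Cd14 and Fcgr1, MYC VP was second, although for Cd14 it overlapped WT AP and for Fcgr1 it overlapped the AP library labelled MYC. Mrc1 and Mertk were highest in the AP library labelled MYC and lowest in MYC VP. For Mrc1 the value in that AP library overlapped that of MYC DLP, and MYC VP overlapped WT DLP. Cd163 was highest in WT AP and lowest in MYC VP, and in DLP and in VP its WT and MYC intervals overlapped. Among the 7 genes above the minimum, Cd14 and Itgam had the most similar patterns of any pair, with a root mean square difference of 0.25 between their centred log2(FPKM + 1) values over the 6 libraries, and Lyz2 and Mertk the least similar with 1.66.

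Set against Csf1r, the levels of several markers differed between genotypes. Of the genes given here, Lyz2, Cd14, Mrc1 and Mertk are also used by other cells, whose part was not tested. Lyz2 was 2.09 times the level of Csf1r in WT DLP and 8.10 times in MYC DLP. In VP it was 3.09 times Csf1r in WT and 16.6 times in MYC, while in AP it was 3.21 and 4.71 times. The ratio of Cd68 to Csf1r was 2.68 in WT and 3.07 in MYC DLP, and 5.79 and 5.84 in VP. Cd14 was 4.00 and 4.31 times Csf1r in WT and MYC DLP, but 5.55 and 4.00 times in VP. Mertk went from 1.66 to 0.396 times Csf1r in DLP and from 2.87 to 0.699 in VP, but from 0.704 to 1.35 in AP. Cd163 went from 0.0471 to 0.0156 in DLP and from 0.0453 to 0.00944 in VP, the latter from 11 estimated reads. Mrc1 was 0.340 and 0.323 times Csf1r in DLP, and went from 0.974 to 0.245 in VP, but from 0.270 to 0.534 in AP. These ratios come from single libraries and were not tested.

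**Figure D3:**
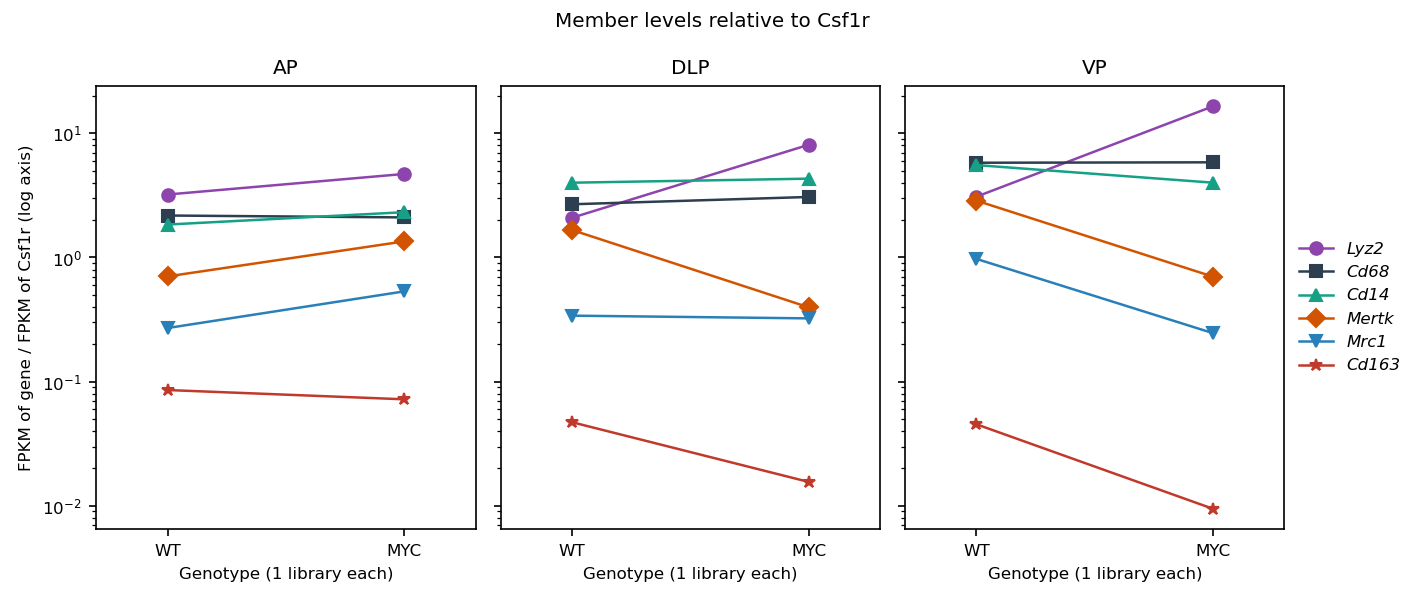
FPKM of 6 marker genes divided by that of Csf1r in the same library (vertical log axis), in WT and MYC of each lobe, 1 library per point. In DLP and VP Lyz2 is further above Csf1r in MYC than in WT (16.6 times in MYC VP) and Cd163 further below it, while Mertk goes from above Csf1r in WT (1.66 and 2.87 times) to below it in MYC (0.396 and 0.699 times).

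Other genes of mononuclear phagocytes were also higher in MYC DLP and VP. Of 20 further genes of these cells, 17 were at least 2-fold higher in MYC DLP (16 of the 18 that passed the minimum with MYC DLP at the WT level) and 15 in MYC VP, and none was 2-fold lower in either. Their median log2 difference was 2.08 in DLP, 1.76 in VP and -0.17 in AP. The lysosomal protease gene Ctss had 14.1 FPKM in WT DLP against 119.9 in MYC DLP, and 10.2 against 56.5 FPKM in VP. The complement genes C1qa and C1qb, which macrophages make, had 19.2 and 11.7 FPKM in WT DLP and 93.8 and 72.6 in MYC DLP. Markers often used for tissue-resident macrophages were mostly low. Of 8 such genes 3 passed the minimum, and their median was 0.16 in DLP and -0.88 in VP. Lyve1 had 1.13 FPKM in WT DLP against 0.550 in MYC DLP, and Folr2 had 0.316 and 0.823. Lyve1, which lymphatic endothelium also expresses, is itself the median in VP. Siglec1 and Timd4, below the minimum and named after their values were seen, went from 0.116 to 1.84 and from 0.645 to 1.40 FPKM in DLP, and from 0.0716 to 0.885 and from 0.204 to 1.06 in VP. Cbr2, with 1456 FPKM in WT VP against 210.4 in MYC VP, took up most of the sum of that list.

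Genes more typical of blood monocytes varied. Of 6 genes that passed the minimum, 3 were at least 2-fold higher and 1 lower in MYC DLP, and 1 was higher and 1 lower in MYC VP. Of the 3, Chil3, which is named after its values were seen, passed the minimum only through MYC DLP, with 12.96 FPKM there and 0 in the WT libraries. Plac8 had 14.2 FPKM in WT DLP against 47.6 in MYC DLP, and 2.06 against 9.59 FPKM in VP. Ly6c2, the gene of the Ly6C antigen of inflammatory monocytes, had 14.4 and 20.3 FPKM in DLP. Ace, which endothelium and other cells also express, had 54.6 FPKM in WT DLP against 19.9 in MYC DLP.

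The partners of the marker genes were then examined by role. Among ligands and receptors of the colony-stimulating factor family, 4 of 6 tested (3 of 5 without Csf3r, which passed through MYC DLP) were at least 2-fold higher in MYC DLP and 2 of 6 in MYC VP. Csf1, the main ligand of Csf1r, was not among them, with 48.0 FPKM in WT DLP against 28.0 in MYC DLP, and 23.5 against 26.2 FPKM in VP. Il34, the other ligand, named after its values were seen, was among the 4 in DLP. It had 0.745 FPKM in WT DLP against 2.85 in MYC DLP, and 0.210 and 0.697 FPKM in VP. Csf2rb, the shared receptor chain for GM-CSF, had 11.4 and 25.9 FPKM in DLP and 2.62 and 9.71 in VP, and Csf2ra, its partner chain, had 10.7 and 22.4 in DLP. Beside Fcgr1, all 3 other Fc receptor genes tested were at least 2-fold higher in both lobes, with medians of 2.56 in DLP and 1.81 in VP. Fcer1g, the signalling chain that Fcgr1 needs, had 5.35 and 37.1 FPKM in WT and MYC DLP, Fcgr3 had 1.77 and 13.4 FPKM, and Fcgr2b had 1.88 and 15.96 FPKM.

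For Itgam, 5 of 6 partner genes (4 of 5 with MYC DLP at the WT level in the minimum) were at least 2-fold higher in MYC DLP and 2 of 6 in MYC VP. Itgb2, the chain that pairs with Itgam, had 3.50 FPKM in WT DLP against 10.99 in MYC DLP. Icam1, a ligand of that pair, was 110 and 109 FPKM in the same libraries. C3, the complement protein whose fragments that pair binds, had 35.0 and 73.3 FPKM in DLP, and 16.8 and 15.2 in VP. Genes of lipopolysaccharide recognition differed little, with 1 of 8 at least 2-fold higher in each of these lobes. Their medians were 0.37 in DLP and -0.05 in VP. The higher gene was Ly86 in both, named after its values were seen, with 2.01 and 8.72 FPKM in DLP. Lbp had 28.6 FPKM in WT DLP against 49.8 in MYC DLP, and the adaptor genes Myd88 and Ticam1 went from 25.3 to 19.0 and from 10.6 to 11.9 FPKM.

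Genes that act with Mertk in engulfment differed by less than 2-fold for the most part. Of 9 genes, 1 was at least 2-fold higher in MYC DLP and 1 at least 2-fold lower in MYC VP, and the medians were -0.30 and -0.28. The first was Dock2, named after its values were seen, with 0.995 FPKM in WT DLP against 3.71 in MYC DLP, and the other was Gas6. Mfge8, which bridges dying cells to phagocytes, was the highest of the list by its mean over the 6 libraries, with 69.0 FPKM in WT DLP against 128 in MYC DLP (log2 difference of 0.89), and 57.7 and 61.4 FPKM in VP. Gas6, a ligand of Mertk, had 101 FPKM in WT DLP against 62.5 in MYC DLP, and 41.1 and 14.8 FPKM in VP. Axl, a receptor of the same family, had 66.2 and 50.3 FPKM in DLP and 37.0 and 22.7 in VP. Among genes of scavenging and haem handling, 2 of 9 were higher and 2 lower by 2-fold in MYC DLP, and 3 were lower in MYC VP, with medians of 0.47 and -0.32. The 2 higher in DLP, named after their values were seen, were the iron exporter gene Slc40a1 with 1.07 and 7.40 FPKM and the scavenger receptor gene Msr1 with 0.770 and 2.77. Msr1 passed the minimum only through MYC DLP, and the DLP median was -0.06 without it. Hmox1, which breaks down haem, had 141 FPKM in WT DLP against 42.3 in MYC DLP. Lrp1, a scavenger receptor, had 33.1 and 18.8 FPKM, and Scarb1, the receptor for high-density lipoprotein, had 22.2 and 31.1.

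Genes shared by all leukocytes were higher in MYC alongside the marker genes. Of 10 such genes, 8 were at least 2-fold higher in MYC DLP and 7 in MYC VP, with medians of 1.63 and 1.26, and their sum was 98.2 FPKM in WT DLP against 250.1 in MYC DLP. In VP the sum was 63.3 FPKM in WT and 131 in MYC. Ptprc (CD45) had 3.18 and 11.4 FPKM in DLP and 1.91 and 4.72 in VP. Cd52 had 39.7 and 80.8 FPKM in DLP, Lcp1 had 26.0 and 41.9, and Laptm5 had 6.58 and 34.3. When the leukocyte median was taken off, the log2 difference of Lyz2 was still 1.74 in DLP and 2.39 in VP. Those of Csf1r, Cd14, Mrc1 and Itgam then turned to -0.25, -0.04, -0.53 and -0.20 in DLP, and Mertk was at -2.11. In VP, Csf1r turned to -0.15, Cd14 to -0.39, Itgam to -0.90 and Fcgr1 to -0.35, Mrc1 was at -1.66 and Mertk at -1.82. The median of the 7 genes turned to -0.20 in DLP and -0.39 in VP, beside -1.59 and -1.22 for all genes on the same scale. Cd68 was at 0.03 in DLP and 0.08 in VP. Relative to the leukocyte genes, 2 of the 7 genes differed by 2-fold in MYC DLP, Lyz2 higher and Mertk lower, where 0.793% of all genes were higher and 87.7% lower by that much. In MYC VP 3 of 7 did, Lyz2 higher and Mrc1 and Mertk lower, where 0.793% were higher and 65.9% lower.

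Other immune cells were also represented. The neutrophil genes S100a8 and S100a9 had 18.0 and 16.6 FPKM in MYC DLP, compared with 1.26 and 0.402 in WT DLP and at most 0.326 in the VP libraries. Csf3r, the receptor for G-CSF, had 0.514 FPKM in WT DLP against 3.56 in MYC DLP. Of 10 neutrophil genes, 3 passed the minimum. S100a9 and Csf3r passed it only through their level in MYC DLP, so that no count is given for them. The summed level of the 10 was 2.71 FPKM in WT DLP against 39.8 in MYC DLP, and 3 of the 10 were listed at 0 in each of these libraries. These cells also use Itgam, Cd14 and Lyz2, and their part in the values of these genes was not tested. Of 5 genes of T and NK cells, 1 (Ncr1, named after its values were seen) passed the minimum only through MYC DLP, and the other 4 were at least 2-fold higher there, with sums of 10.9 and 45.8 FPKM over the 10 listed. Nkg7, Cd3g and Cd3e had 3.07, 2.49 and 1.98 FPKM in WT DLP against 12.8, 8.59 and 10.1 in MYC DLP. In VP 2 of 5 were at least 2-fold higher in MYC, with a median of 0.94 and sums of 5.42 and 19.8 FPKM. Of 3 dendritic cell genes that passed without the level in MYC DLP, 2 were at least 2-fold higher, with sums of 7.88 and 24.3 FPKM over the 9 listed. Ccr7 had 3.40 and 10.5 FPKM, Itgax 1.07 and 6.88, and Zbtb46 1.57 and 1.67. Of 6 B cell genes only Cd79a passed the minimum, through MYC DLP, with 0.745 and 5.06 FPKM. Mast cell genes had medians of 0.93 in DLP and -0.54 in VP, and Mcpt4, their highest gene by its mean over the 6 libraries, had 0.959 and 4.57 FPKM in DLP. The part of these cells was not tested either.

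Genes of structural cells took other values in DLP and VP. The median of 8 endothelial genes was 0.03 in DLP and -0.02 in VP, and Pecam1 had 37.4 and 50.1 FPKM in DLP. Smooth muscle genes were lower in MYC, with medians of -1.05 and -0.81, and Tagln, Acta2 and Myh11 had log2 differences of -0.59, -0.58 and -1.18 in DLP. Fibroblast genes had medians of -0.17 and -1.34, and they did not share a direction in DLP, where Dcn had 1155 FPKM in WT against 453.9 in MYC and Col3a1 had 22.3 against 94.0. Luminal epithelial genes such as Krt8 and Krt18 had medians of 0.23 and -0.26, and basal genes of 0.48 and -0.60. Lymphatic endothelial genes had medians of -0.46 and -0.88. Red blood cell genes had medians of 0.02 in DLP and -0.38 in VP.

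**Figure D4:**
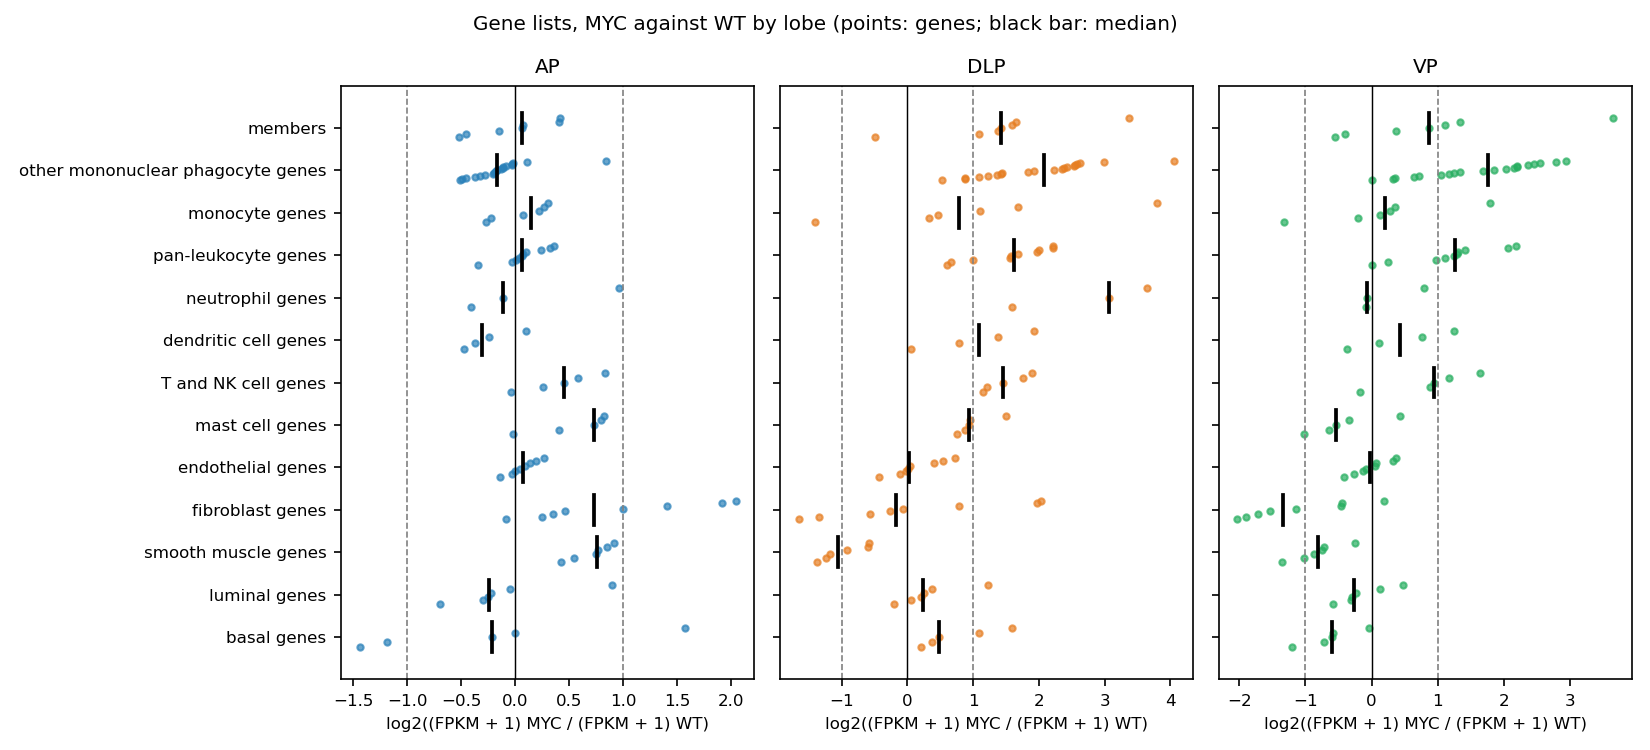
Log2 of (FPKM + 1) in MYC over (FPKM + 1) in WT for every gene above the minimum in 13 gene lists (points) with the list median (black bar), in AP, DLP and VP, 1 library per genotype and lobe, with a scale of its own for each lobe. The medians of marker genes, other mononuclear phagocyte genes and pan-leukocyte genes lie to the right in DLP and VP (1.42, 2.08 and 1.63 in DLP) but around 0 in AP. Of the marker genes, Mertk lies to the left in DLP and VP, and Mrc1 in VP. The median of endothelial genes lies around 0 in all 3 lobes.

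Genes whose pattern over the 6 libraries was most like that of each marker gene were found by the same root mean square difference, among all genes that averaged 1 FPKM or more. For Csf1r these were Slc11a1, Wfdc17, Tgfb1, Trim30a and Irgm2, at 0.18 to 0.23. Slc11a1, a metal transporter of the phagosome, had 7.05 FPKM in WT AP, 2.99 in WT DLP and 8.83 in MYC DLP. For Cd68 they were Sdc4, Cd300c2, Adgre1, Runx3 and Cd300a, at 0.17 to 0.19, of which Adgre1 encodes the macrophage antigen F4/80. For Lyz2 they were C1qc, C1qb, Ctss, Birc5 and Ms4a7, at 0.37 to 0.46, and Lyz2 itself varied most of the 7 over the libraries. Birc5 is a gene of mitosis and no marker of phagocytes.

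For Cd14 the most similar genes were Gpr132, Irf5, Lilrb4a, Ncf4 and Napsa, at 0.09 to 0.13, and for Itgam Dennd1c, Dok2, Adgrg5, Lcp2 and Dock2, at 0.07 to 0.11. For Mrc1 they were S100a10, Lsm8, Ggct, Vamp5 and Tnni2, at 0.13 to 0.20, and for Mertk Adcy5, Tm7sf3, Loxl3, Pla1a and Mrvi1, at 0.07 to 0.08. S100a10 and Lsm8 are widely expressed genes. Like Itgam, the genes Dennd1c, Dok2, Adgrg5, Napsa and Tnni2 passed the minimum only through MYC DLP, so that the filter bears on their likeness. With 6 libraries from 2 mice, likeness here describes these libraries only.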

How the data were processed

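Bulk RNA-seq of 6 libraries (poly(A)-selected, stranded, single-end 75 bp reads, target of 40 M reads) was analysed, grouped by the sample titles. The authors mapped reads with STAR and quantified genes with Cufflinks. The genome build mm10 and bcl2fastq 2.18 are named in the submitters' processing notes. The deposited values were treated as FPKM, since they are fractional and sum to between 374085 and 483143 per library, although the methods speak of read counts from Cufflinks. FPKM + 1 was compared on the log2 scale, over the 12361 of 24908 genes that averaged 1 FPKM or more, and 2-fold or more was counted as different. No test was run, since each group has 1 library. Named genes were the 10 markers, the 3 highest genes by mean of each list (fewer are printed for structural, B, mast and red blood cells), Ptprc, Myc, Krt8, Krt18 and Lyz1, the 5 genes most like each marker, and genes said in the text to be named after their values were seen. Members, lists and thresholds were chosen with earlier results of these data known.

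Mapped reads were estimated from steps in the FPKM of single-exon, single-transcript genes longer than 600 bases below 0.3 FPKM, using lengths less 200 bases. Between 34.4% and 48.3% of these values lay within 0.03 of a whole read. Reads per gene came from FPKM, depth and the mean GENCODE M1 transcript length. Intervals were exact (Poisson for levels, Clopper-Pearson for ratios). The depth estimate and the 2-fold calls were tried on simulated data, but their accuracy in these libraries was not tested. Alternatives were a pseudocount of 0.1 FPKM, other scalings, other filters, a 4-fold threshold, the leukocyte median taken off, and the 5 markers that other cells use left out. Calculations used Python 3.11.15 with scipy 1.17.1, pandas 2.3.3 and numpy 2.4.6, and plots matplotlib 3.10.9.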

Additional observations from a re-analysis of the deposited data

Results flagged for a closer look

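For 4 marker genes the difference between MYC and WT had opposite signs in 2 lobes that were at least 1 log2 unit apart, each from 1 library per genotype, and the difference between lobes was not tested. On the log2(FPKM + 1) scale, Csf1r was lower in the AP library labelled MYC and higher in MYC DLP and VP, so that its difference was 1.82 larger in DLP and 1.56 larger in VP than in AP. For Cd68 the gap to AP was 2.17 in DLP and 1.86 in VP. For Cd14 it was 1.74 in DLP and 1.02 in VP. Mrc1 was higher in MYC DLP and lower in MYC VP, and the VP difference minus the DLP difference was -1.50. Mertk also had opposite signs but smaller gaps, with 0.41 in AP, -0.49 in DLP and -0.56 in VP.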

How the results depend on the processing

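No paired analysis was possible because each group has 1 library and each genotype is 1 mouse, which leaves no second mouse of a genotype for the lobes to be paired in. In MYC DLP the number of markers at least 2-fold different, 6 of 7, became 2 relative to the pan-leukocyte genes, 2 of 2 without the markers that other cells use, 3 of 3 at a minimum mean of 10 FPKM, and 1 at 4-fold. It was 5 with equal sums without the 20 highest genes. In MYC VP the number was 1 at 4-fold, in place of 3, and 2 under both equal-sum scalings. Without a filter and with a pseudocount of 0.1 FPKM, chosen after seeing the data, 7 of 10 were higher in MYC DLP and 4 of 10 in MYC VP. Of all genes, 8.19% and 7.67% were higher by that much. In WT DLP against WT AP, 2 of 7 became 1 relative to the pan-leukocyte genes, 1 of 2 and 1 of 3 under the same 2 restrictions, and 0 at 4-fold, and it was 3 under the 3 scalings and the pseudocount of 0.1. In WT VP against WT AP it was 2, in place of 3, with size factors, relative to the pan-leukocyte genes and at 4-fold, and 2 of 2 and 2 of 3 under the same restrictions, as in MYC VP. With no filter and a pseudocount of 0.1 FPKM, chosen after seeing the data, the numbers were 5 of 10 in WT DLP and 5 of 10 in WT VP against WT AP, where 2.77% and 11.5% of all genes were lower by that much, and 1 of 10 in WT VP against WT DLP, where 9.01% were lower and the pseudocount of 0.1 FPKM alone gave 1 of 7. Relative to the pan-leukocyte genes, the DLP median turned to -0.20, with Csf1r at -0.25, Cd14 at -0.039, Mrc1 at -0.53 and Itgam at -0.20. The VP median turned to -0.39 and Csf1r to -0.15, and Cd68 to 0.065 in WT VP against WT AP. Taking off the leukocyte median shifts all genes of a comparison by 1 amount. Shares of all genes are not given here at 4-fold, at the minimum of 10 FPKM, under the other scalings or with the pseudocount alone. The counts at those settings therefore cannot be read against all genes.

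Size factors moved the median of all genes by -0.13 in AP, by -0.11 in WT DLP against WT AP and by 0.17 in WT VP against WT DLP. Equal sums of FPKM moved it by -0.19 in VP, by -0.17 in WT DLP against WT AP and by -0.11 in WT VP against WT AP. Equal sums without the 20 highest genes moved it by -0.14 in DLP and -0.22 in VP. Under these scalings and the pseudocount of 0.1, no marker changed sign in DLP or VP. In AP, Lyz2 and Itgam turned to -0.09 and -0.01 with size factors. Depth limits Fcgr1, Cd163 and Marco most.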
